A study of Aspergillus nidulans with 12 samples.

Results

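The comparison described here is the effect of deleting *atfA* in mycelium that received no cadmium. It sets the 3 untreated libraries of TNJ92, the Δ*atfA* mutant, against the 3 untreated libraries of THS30, the reference strain, so that 6 of the 12 RNA-seq libraries of the series enter it as groups. Every gene with enough reads was a member, which gave 9070 tested genes among the 10988 of the deposited table. THS30 carries *pyrG89*, *AfupyrG*+, *pyroA4* and *pyroA*+, and TNJ92 carries *pyrG89*, *AfupyrG*+, *pyroA4* and Δ*atfA*::*pyroA*. Both strains thus have the *pyrG89* and *pyroA4* alleles with a functional copy of each gene added, and the *pyroA* copy of TNJ92 stands at the place of *atfA*. Each genotype was represented by 1 strain, so other differences between the strains cannot be told apart from the deletion. Each group had 3 biological replicates. The submerged cultures grew in Barratt's minimal broth at 37 °C for 16 h and then for a further 0.5 h without CdCl2. The other 6 libraries came from cultures of the same strains with 0.2 mM CdCl2 during that last 0.5 h, and they are used below only as a second place to look at the same strain difference.

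AtfA is a bZIP transcription factor of the ATF/CREB family, which binds DNA as a dimer. In fungi these factors act below the stress-activated MAP kinase of the high osmolarity glycerol (HOG) pathway, called SakA in *Aspergillus nidulans*, and are known for roles in stress tolerance, spore resistance and development. A phosphorelay of histidine kinases, a phosphotransfer protein and response regulators stands above that kinase.

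Library totals ran from 8721119 to 12480895 counts in THS30 and from 12119719 to 13641031 counts in TNJ92, and the shallowest library was the first of THS30. Levels are given as CPM, the counts per 1000000 counts of the library total scaled by TMM, a normalization for library composition. Pearson's r between log2 levels of libraries was 0.986 to 0.993 within a strain and 0.898 to 0.916 between the strains, over genes, which are not independent replicates. In RNA of whole mycelium, fewer cells of a type and less RNA per cell cannot be told apart.

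More than every other gene differed between the untreated strains. By edgeR's quasi-likelihood test with Benjamini-Hochberg adjustment at 0.05, 5588 genes differed (61.6% of those tested). Of these, 2905 were higher in TNJ92 (32%) and 2683 were lower (29.6%), with a median log2 fold change of 0.03 over all tested genes. The share with no overlap between the libraries of the strains was 66.3%. Small and large differences leaned opposite ways. Under a log2 fold change of 1 in size, 2322 genes were higher and 1508 were lower. At a log2 fold change of at least 1 in size, 583 genes were higher (6.43%) and 1175 were lower (13%). At 2 or more the counts were 127 (1.4%) and 496 (5.47%), and at 3 or more they were 57 (0.628%) and 241 (2.66%). Large differences were mostly losses in the mutant.

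**Figure D1:**
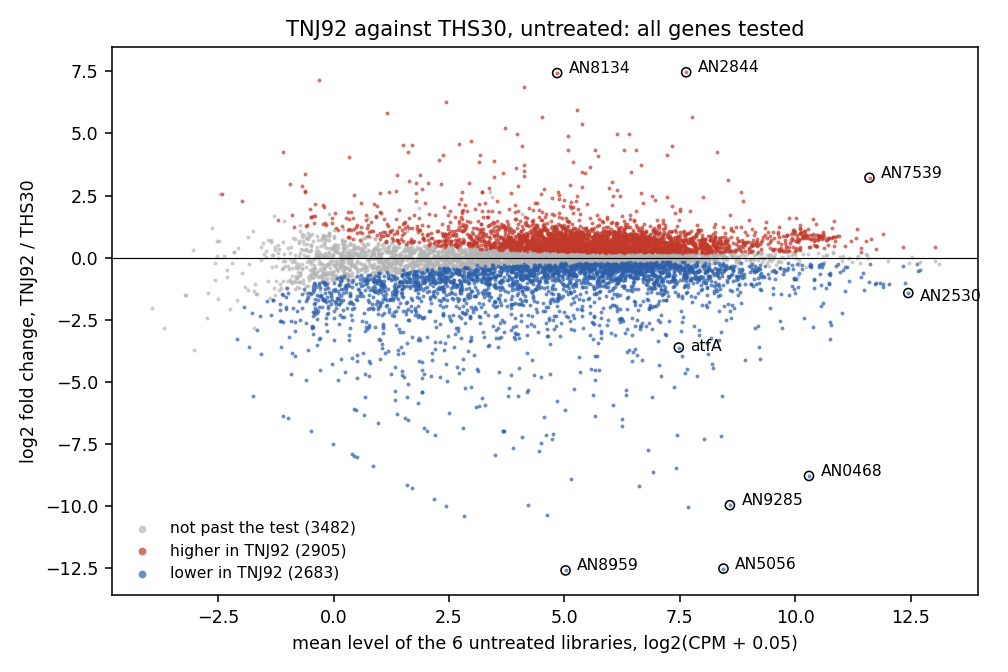
Log2 fold change of TNJ92 against THS30 in untreated mycelium (vertical axis) by mean level of the 6 libraries (horizontal axis, log2 CPM), 1 point for each of the 9070 tested genes, coloured by the edgeR call. The points spread farther below 0 than above it: 241 genes were lower by 3 or more and 57 were higher by as much.

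The direction also went with gene length and level. In the quartile of genes with the shortest transcripts the median log2 fold change was 0.18, with 890 genes higher and 556 lower, and in the quartile with the longest it was -0.12, with 459 higher and 856 lower. In the quartile of genes with the lowest mean CPM it was -0.36, and 250 genes there were lower by a log2 of 2 or more against 45 higher. The part of transcript length in the gene group results below was not tested.

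The deleted gene was measured first. *atfA* (AN2911) stood at 357, 331 and 301 CPM in THS30 and 26.7, 27.4 and 26.1 CPM in TNJ92. The groups were far apart, and the log2 fold change was -3.63 ± 0.12 (adjusted p = 6.94e-14, edgeR). The remaining 26.7 CPM on average are reads that the table assigns to the *atfA* gene in a strain without it, and which stretch of the gene they cover was not analysed here. *pyroA* (AN7725), a gene of vitamin B6 synthesis and the marker of the deletion, stood at 147, 165 and 228 CPM in THS30 and 653, 608 and 520.4 CPM in TNJ92. It was higher in every TNJ92 library, with a log2 fold change of 1.72 ± 0.14 (adjusted p = 2.49e-08, edgeR). *pyrG* (AN6157), the orotidine 5'-phosphate decarboxylase gene whose *pyrG89* allele both strains carry, stood at 67.2, 58.3 and 63.9 CPM in THS30 and 133, 129.6 and 101 CPM in TNJ92, all TNJ92 values being the higher ones, and its log2 fold change was 0.94 ± 0.11 (adjusted p = 1.35e-06, edgeR). On one side of *atfA* in the reference order the nearest tested genes, AN2912 and AN2913, had log2 fold changes of 1.35 ± 0.39 (adjusted p = 0.014, edgeR) and 2.47 ± 0.82 (adjusted p = 0.0278, edgeR). The AN2912 call was lost without THS30 replicate 2 (1.16) and with only the 6 untreated libraries in the fit (1.34). The AN2913 call was lost without THS30 replicate 1 (log2 fold change 2.12) or 2 (2.34), without TNJ92 replicate 3 (1.51) and with only the 6 untreated libraries in the fit. AN2914, the next tested gene on that side, had 1.03 ± 0.08 (adjusted p = 1.01e-08, edgeR), and AN2910 and AN2909 on the other side did not pass the test.

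Some transcripts of THS30 were nearly absent from the mutant. AN8959, which has no name in the annotation used, was read 561, 769 and 697 times in the THS30 libraries and never in TNJ92. Against a floor of 3 counts per library it was at least 247-fold lower in TNJ92. AN5056, also without a name, stood at 793, 688 and 609.8 CPM in THS30 and 0.159, 0.0876 and 0.0751 CPM in TNJ92. Its libraries fell into a high and a near-empty set. AN9180, a putative transketolase gene that the study places in a cluster without a backbone enzyme, stood at 412, 427 and 385 CPM in THS30 and 0.398, 0.438 and 0.300 CPM in TNJ92, with a log2 fold change of -10.05 ± 0.15 (adjusted p = 6.16e-18, edgeR). AN2404, annotated as similar to a non-ribosomal peptide synthetase, stood at 173, 201 and 216 CPM in THS30 and 0.0796, 0.438 and 0.450 CPM in TNJ92, with -9.21 ± 0.24 (adjusted p = 1.51e-14, edgeR). In both genes every TNJ92 library was far below every THS30 library. AN9285, unnamed, stood at 758, 767 and 777 CPM in THS30 and 0.716, 0.701 and 0.826 CPM in TNJ92, and AN0468, unnamed, at 2521, 2582 and 2438 CPM in THS30 and 4.14, 6.48 and 6.31 CPM in TNJ92. The log2 fold changes were -9.98 ± 0.16 and -8.80 ± 0.16, and no library of one strain reached those of the other. The largest losses among genes of at least 50 CPM also took in AN0693 (-8.66), AN0694 (-8.93), AN7992 (-8.49) and AN10422 (-7.77), none of them named. By a rule of at most 3 counts in each library of 1 strain and at least 10 CPM on average in the other, 10 genes were near-silent in TNJ92 and 1, AN12458, in THS30. Besides genes already given, those near-silent in TNJ92 were AN11314, AN5017, AN6419, AN7989, AN7990, AN8930 and AN8974. With so few reads on one side, the size of these log2 fold changes is uncertain.

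The same genes were also measured under CdCl2, in libraries the comparison does not use. Since they were chosen as the largest untreated losses, a smaller value there is favoured by the choice, and no pattern is read from it. AN5056 had a log2 strain difference of -12.53 without and -5.09 with CdCl2, and its interaction in the same fit was -7.45 ± 0.34 (adjusted p = 7.38e-10, edgeR). AN9285 went from -9.98 to -6.46 and AN7992 from -8.49 to -5.98, both also past the interaction test (adjusted p = 1.3e-08 and 3.61e-06, edgeR). AN2404 and AN0694 had -8.13 and -7.72 under CdCl2 and did not pass it (adjusted p = 0.139 and 0.219). Over all genes, 26.7% passed the interaction test.

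The gains in the mutant were led by genes with few reads in THS30. AN2844, unnamed, stood at 1.66, 2.80 and 2.09 CPM in THS30 and 447, 423 and 318 CPM in TNJ92, and its log2 fold change was 7.47 ± 0.30 (adjusted p = 1.75e-09, edgeR). AN8134, also unnamed, stood at 0.119, 0.509 and 0.272 CPM in THS30 and 63.3, 57.4 and 50.4 CPM in TNJ92, with 7.43 ± 0.22 (adjusted p = 1.51e-14, edgeR). *CYP682C1* (AN6787), a putative cytochrome P450 gene, stood at 5.45, 6.78 and 12.3 CPM in THS30 and 447, 434 and 396 CPM in TNJ92, with 5.68 ± 0.20 (adjusted p = 6.15e-12, edgeR). For all 3 genes the lowest TNJ92 library exceeded the highest THS30 library several times over. The 10 largest gains among genes of at least 50 CPM also took in AN8137 (5.93), AN8135 (5.39), AN8943 (4.99), AN7832 (4.97), AN5069 (4.88), AN8609 (4.50) and AN0300 (4.33). For these the sources used here give no name.

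Measured by reads rather than by fold, other genes stood out. AN2530, unnamed, lost the most CPM, from 7493, 8862 and 8128 CPM in THS30 to 2241, 3497 and 3356 CPM in TNJ92 (log2 fold change -1.43 ± 0.17). *hsp70* (AN5129), a chaperone gene, stood at 6435, 7283 and 7799 CPM in THS30 and 2978, 3726 and 3930.0 CPM in TNJ92 (-1.02 ± 0.13), and AN7892, unnamed, at 3037, 3276 and 3144 CPM in THS30 and 245, 399 and 322 CPM in TNJ92 (-3.29 ± 0.18). In each of them the TNJ92 libraries were the lower ones without overlap. AN0858 (-1.21) and AN2286 (-1.06), the latter in the glycolysis group of the study, completed the 5 largest losses. The largest gain was that of AN7539, unnamed, at 673, 575 and 576 CPM in THS30 and 5310.2, 5905 and 5712 CPM in TNJ92 (3.21 ± 0.11). AN4218 (0.43), AN1624 of the oxidative phosphorylation group (0.94), *ubi1* (AN4872), a fusion of ubiquitin with a ribosomal protein (1.14), and *rpl16a* (AN4202), a ribosomal protein gene (1.46), followed. These sizes are differences in read share and depend on transcript length.

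Genes with large losses often lay side by side. In the gene order of the RefSeq assembly ASM1142v1, 466 genes lower by a log2 of 2 or more could be placed, and where such a gene had a tested next gene, that gene was also lower by as much in 90 of 340 cases (26.5%), against 4.67% of all next genes. For genes higher by 2 or more the next gene was so too in 21 of 93 cases (22.6%), against 1.26%. Runs of 3 or more such neighbours numbered 12 among lower genes, with 46 genes, and 4 among higher genes, with 14 genes. At a log2 of at least 1 there were 54 lower runs (191 genes) and 19 higher runs (66 genes). Runs were counted after their values had been seen and are a description with no test.

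The longest lower run held the 7 genes from AN8636 to AN8642 on chromosome III, among them *catA* (AN8637), the gene of a conidial catalase. Their log2 fold changes were -3.09 for AN8636, -7.68 for *catA*, -5.56 for AN8638, -4.13 for AN8639, -3.37 for AN8640, -4.78 for AN8641 and -2.31 for AN8642. Outside the run, AN8643 was lower by less (-1.31) and AN8635 did not pass the test. A run of 6 on the same chromosome reached from AN5086 (-2.03) to AN5083 (-4.48), with AN10626 lowest (-6.47). On chromosome VI, AN2921 (-5.08), AN2922 (-5.79), AN2923 (-6.14) and AN2924 (-4.49) fell together. AN2921 to AN2923 lie 12 to 14 places from *atfA*, on the same side as AN2912 to AN2914, and the part of that nearness was not tested. AN3517 (-6.87) to AN3520 (-4.93) and AN7959 (-7.51) to AN7961 (-2.02) formed further runs on chromosome II. Of the higher runs, AN8134 (7.43), AN8135 (5.39), AN8136 (5.67) and AN8137 (5.93) lay on chromosome II, and AN3205 (7.16), AN3206 (4.13), AN3207 (2.62) and AN3208 (2.20) on chromosome VI.

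**Figure D2:**
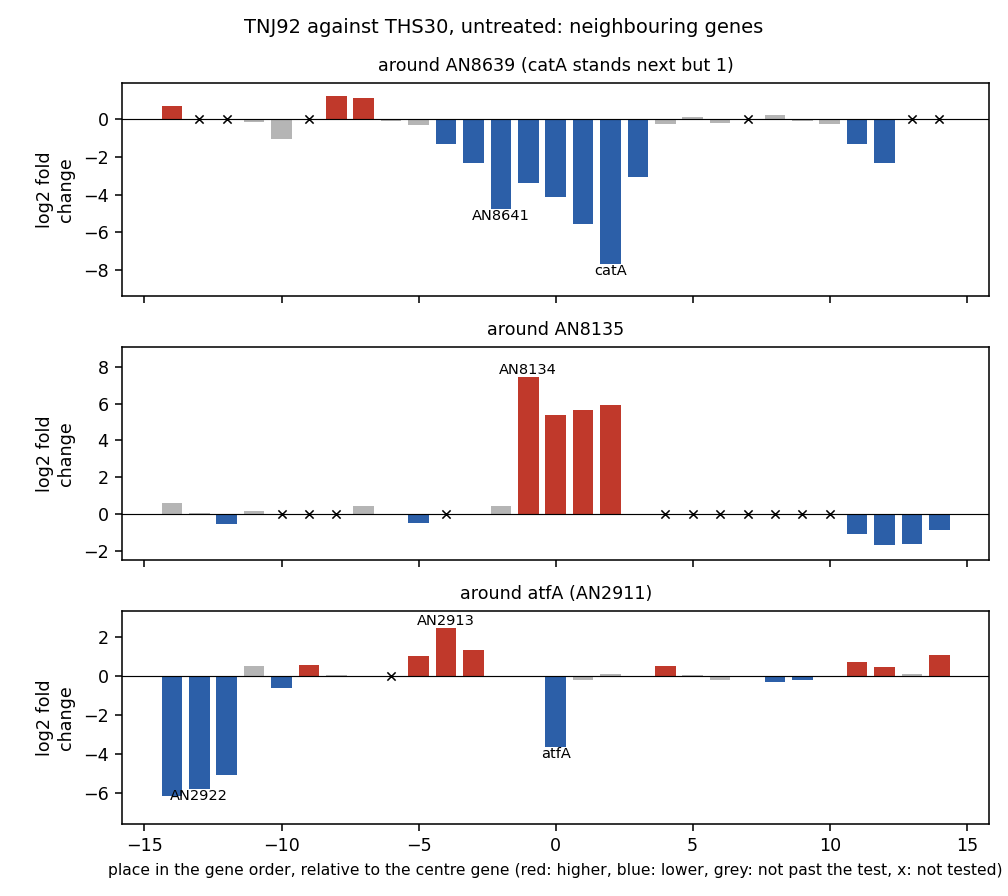
Log2 fold change of TNJ92 against THS30 in untreated mycelium (vertical axis) by place in the gene order around AN8639, AN8135 and *atfA* (horizontal axis, number of genes from the centre). Red bars were higher and blue bars lower by the edgeR test, grey bars did not pass it, and crosses mark genes not tested. The 7 genes around *catA* lie between -7.68 and -2.31, with smaller values just outside the run.

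Genes of the study's phosphorelay group were lower in the mutant almost throughout. 0 of 20 tested members were higher in TNJ92, 18 were lower and 2 did not pass the test, where 29.6% of all genes were lower, and the median log2 fold change was -0.79. *hk-8-2* (AN4113), a histidine kinase gene, stood at 467, 477 and 357 CPM in THS30 and 48.7, 48.4 and 52.1 CPM in TNJ92, with a log2 fold change of -3.12 ± 0.11 (adjusted p = 2.45e-13, edgeR). *tcsB* (AN1800), the gene of a transmembrane histidine kinase of the HOG pathway, stood at 280.1, 361 and 319 CPM in THS30 and 63.0, 56.7 and 64.1 CPM in TNJ92, with -2.39 ± 0.10 (adjusted p = 2.89e-12, edgeR). The TNJ92 libraries of both genes lay far below those of THS30. Further genes of the group fell, *hk-8-3* (AN6820) by 2.47 ± 0.09, *hk-8-1* (AN2581) by 2.47 ± 0.12, *hk2* (AN7945) by 2.23 ± 0.23 and *phkB* (AN3101) by 1.17 ± 0.10 on the log2 scale. Of the response regulators, *srrA* (AN3688) had -0.79 ± 0.08, *sskA* (AN7697) -0.79 ± 0.21 and *srrB* (AN7572) -0.63 ± 0.10, all past the test. *srrC* (-0.09) did not pass it, and neither did *ypdA* (0.24), the phosphotransfer protein gene between kinases and regulators. *ypdA* was called higher without THS30 replicate 1 (0.35), without TNJ92 replicate 3 (0.34) and with a replicate block (0.24). Under CdCl2, with 27.8% of all genes lower, the median of the phosphorelay genes was -0.51, 12 were lower and 1 was higher. The interaction test was passed by 11, each with the more negative strain difference in untreated mycelium, beside 26.7% of all genes and 13.2% in that direction.

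**Figure D3:**
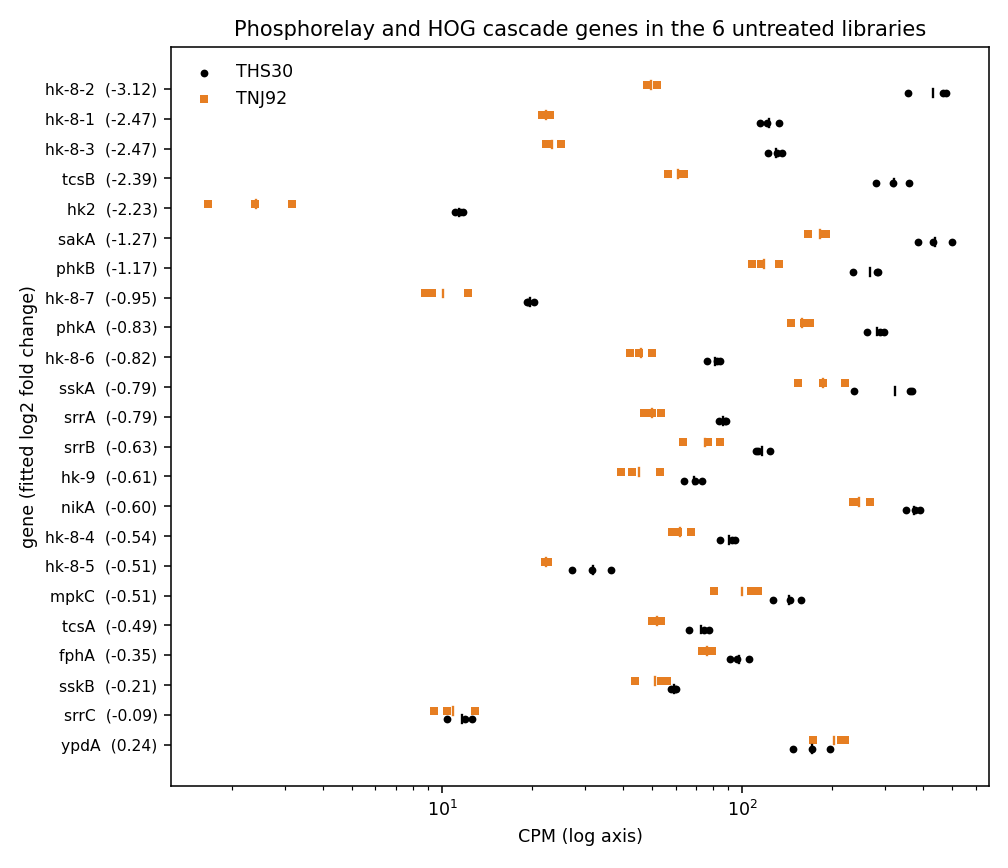
Levels of the phosphorelay and HOG cascade genes in the 3 THS30 and 3 TNJ92 untreated libraries (horizontal axis, CPM on a log scale), 1 point per library and 1 row per gene. 18 of the 20 phosphorelay genes were lower in TNJ92, from -3.12 for *hk-8-2* to -0.35 for *fphA* on the log2 scale.

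The kinase below the relay was lower too. *sakA* (AN1017), the gene of the stress-activated MAP kinase, stood at 500.5, 434 and 386 CPM in THS30 and 189, 191 and 166 CPM in TNJ92, without overlap, and its log2 fold change was -1.27 ± 0.10 (adjusted p = 1.62e-08, edgeR). With CdCl2 the strain difference was -0.18 ± 0.10, and the interaction passed the test (adjusted p = 4.72e-05, edgeR). *mpkC* (AN4668), its paralogous kinase gene, had -0.51 ± 0.13. In the HOG list, which shares 5 genes with the phosphorelay list, 0 of 8 tested members were higher in TNJ92, 6 were lower and 2 did not pass the test, beside 29.6% of all genes lower, with a median of -0.69. The 2 were *ypdA*, again called higher in the alternatives named above, and *sskB* (AN10153) (-0.21 ± 0.09). *sskB* was called lower without TNJ92 replicate 1 (-0.28). *pbsA* and *pbsB*, also looked for, were not matched by symbol, so the list does not cover the cascade as a whole. Of other bZIP factor genes, *atfB* (AN6849), an ATF/CREB relative of *atfA*, stood at 46.4, 44.7 and 39.9 CPM in THS30 and 5.49, 4.82 and 7.21 CPM in TNJ92, with -2.89 ± 0.18 (adjusted p = 4.19e-10, edgeR). The 2 sets of libraries did not meet. *rsmA* (AN4562) (-0.93 ± 0.17) and *cpcA* (AN3675) (-0.50 ± 0.11), a regulator of amino acid synthesis, were lower as well, while *hacA* (AN9397) (0.66 ± 0.10), a factor of the unfolded protein response, was higher.

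Catalase genes were mostly lower, with 4 of 5 lower and 1 higher, beside 29.6% and 32% of all genes. *catA* (AN8637) was read 206, 390 and 343 times in the THS30 libraries and 1, 0 and 4 times in those of TNJ92, and its log2 fold change was -7.68 ± 0.41 (adjusted p = 2.14e-10, edgeR). *catB* (AN9339), the hyphal catalase gene, stood at 2192, 2364 and 2599 CPM in THS30 and 524, 644 and 697 CPM in TNJ92, with -1.94 ± 0.12 (adjusted p = 3.02e-10, edgeR). *cpeA* (AN7388), a catalase-peroxidase gene, had -3.16 ± 0.15, and AN8553, a putative catalase gene, -1.04 ± 0.17. *catC* (AN5918), another putative catalase gene, moved the other way, from 13.2, 12.9 and 12.5 CPM in THS30 to 46.1, 41.1 and 39.3 CPM in TNJ92 (1.71 ± 0.11). None of the 5 genes had overlapping libraries, which held for 66.3% of all genes.

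Antioxidant enzyme genes held higher and lower members. Among them 14 of 30 tested members were higher in TNJ92, 8 were lower and 8 did not pass the test, beside 32% of all genes higher and 29.6% lower, with a median of 0.15. *trxB* (AN8218), a thioredoxin reductase gene, stood at 90.5, 71.3 and 67.4 CPM in THS30 and 761, 671 and 577 CPM in TNJ92 (3.13 ± 0.15), and AN2578, which has a predicted peroxidase domain, had 2.64 ± 0.11. AN5440, a putative cytochrome c peroxidase gene, had 1.38 ± 0.28. AN3255, a predicted glutathione peroxidase gene, was read 245, 315 and 321 times in the THS30 libraries and 39, 42 and 43 times in those of TNJ92, with -3.08 ± 0.13 (adjusted p = 3.34e-12, edgeR). Under CdCl2 the strain difference was smaller, at -0.44 ± 0.12 (interaction adjusted p = 5.89e-08, edgeR). AN1131, a putative Cu/Zn superoxide dismutase gene, had -2.65 ± 0.13 without and -2.90 ± 0.13 with CdCl2.

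Ribosome biogenesis genes were nearly all higher in the mutant. Of these genes, 167 of 185 tested members were higher in TNJ92, 1 was lower and 17 did not pass the test, where 32% of all genes were higher, and the median log2 fold change was 0.83 beside 0.03 over all genes. The only lower member was AN20049, the gene of the mitochondrial large ribosomal RNA (-1.05 ± 0.34), whose call was lost in 3 alternatives: only the 6 untreated libraries (-1.07), without TNJ92 replicate 1 (-1.01) and without TNJ92 replicate 3 (-1.03). Without TNJ92 replicate 2 the lower members numbered 2. All 23 structural ribosomal protein genes of the list were higher (median 0.89), as were 144 of 161 assembly factor genes (median 0.79). AN3706, related to yeast *RPS10A*, stood at 623, 689.8 and 731 CPM in THS30 and 2212, 2066 and 1708 CPM in TNJ92, with 1.55 ± 0.15 (adjusted p = 2.26e-07, edgeR). *rps21* (AN3823), a ribosomal protein gene, had 1.31 ± 0.13, and AN7674, a gene of large subunit biogenesis by its orthologs, 1.62 ± 0.20. AN6265, whose orthologs cleave the ribosomal precursor RNA, had 1.58 ± 0.20. In each of these the TNJ92 libraries were the higher ones. With CdCl2, where 55.6% of all genes differed between the strains, 27.8% being higher and 27.8% lower, the median of the group was -0.05, with 33 genes higher and 45 lower. The interaction test was passed by 150 genes, 149 of them with the larger value in untreated mycelium, beside 26.7% of all genes and 13.6% in that direction. The study formed this and the other gene groups from its own annotation search, and shows results for them on these samples, so their counts are no independent evidence of a direction.

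**Figure D4:**
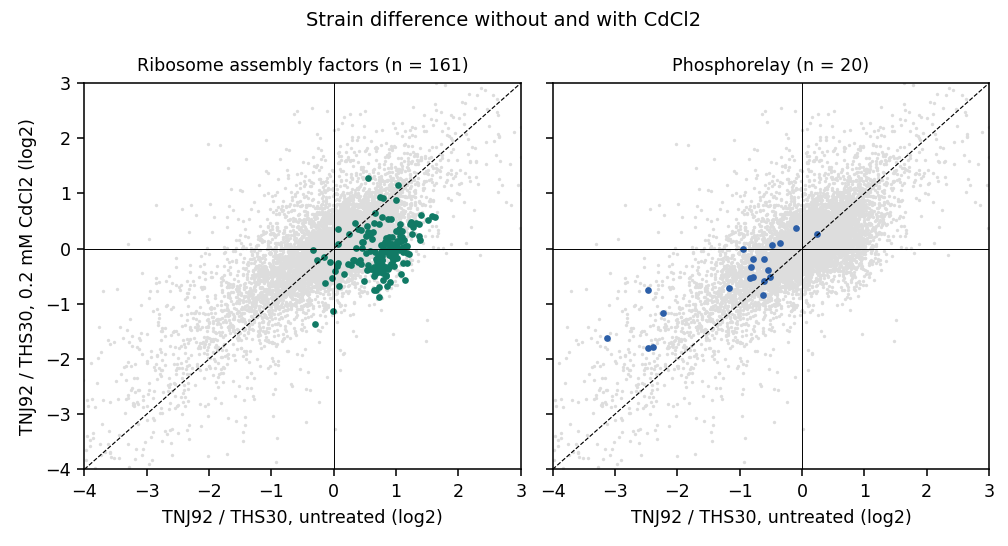
Log2 strain difference (TNJ92 against THS30) in untreated mycelium (horizontal axis) and under CdCl2 (vertical axis), 1 point per tested gene. Ribosome assembly factor genes are marked in the left panel and phosphorelay genes in the right panel. The assembly factor genes lie mostly right of 0, with a median of 0.79 untreated and -0.06 under CdCl2. The phosphorelay genes lie mostly left of 0, with -0.79 and -0.51.

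Chaperone genes did not move as one. *hsp90* (AN8269) stood at 4076, 4606 and 5034 CPM in THS30 and 1859, 2243 and 2471 CPM in TNJ92 (-1.06 ± 0.13), and *hsp70* had -1.02 ± 0.13. Both differences were found without CdCl2, and with it they were 0.13 and -0.08 (interaction adjusted p = 0.000135 and 0.00113, edgeR). *bipA* (AN2062), the chaperone gene of the endoplasmic reticulum, was higher (0.76 ± 0.12). *hscA* (AN12473), a putative heat shock protein gene, and *ssz1* (AN4616), a relative of the 70 kDa heat shock proteins, were higher in untreated mycelium (0.78 and 0.83) and had -0.57 and -0.49 under CdCl2, both past the interaction test (adjusted p = 8.43e-06 and 3.7e-06). *orlA* (AN3441), a gene of trehalose synthesis, stood at 341, 359 and 310.2 CPM in THS30 and 172, 152 and 148 CPM in TNJ92 (-1.10 ± 0.10), and *treA* (AN9340), a trehalase gene, had -0.99 ± 0.09. *tpsA*, *tpsC* and *treB*, further genes looked for in trehalose metabolism, were not matched by symbol. The values of *orlA* and *treA* thus do not cover synthesis or breakdown as a whole.

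Ion pumps and carbon metabolism held more lower than higher genes, beside 32% of all genes higher and 29.6% lower. Of the P-type ATPase genes, 2 of 21 tested members were higher in TNJ92, 14 were lower and 5 did not pass the test, with a median of -0.41, and the higher ones numbered 0 without THS30 replicate 2 and 1 without TNJ92 replicate 1 or 3. *pmcC* (AN8399) stood at 98.6, 111 and 104 CPM in THS30 and 15.2, 17.1 and 15.8 CPM in TNJ92, with -2.70 ± 0.10 (adjusted p = 6.21e-13, edgeR), and *enaA* (AN6642) at 195, 175 and 215 CPM in THS30 and 19.6, 42.2 and 33.6 CPM in TNJ92, with -2.62 ± 0.25 (adjusted p = 4.84e-06, edgeR); both are putative cation-transporting ATPase genes with no overlap between strains. *crpA* (AN3117), a copper pump gene by its orthologs, had -1.18 ± 0.12 and *ygA* (AN3624), a copper transporter gene needed for conidial pigment, -0.64 ± 0.11. In the glyoxylate pathway list 1 of 9 tested members was higher in TNJ92, 5 were lower and 3 did not pass the test. *acuD* (AN5634), the isocitrate lyase gene, stood at 44.5, 62.4 and 81.3 CPM in THS30 and 13.1, 12.4 and 18.7 CPM in TNJ92, with -2.09 ± 0.22 (adjusted p = 4.06e-06, edgeR), and *acuE* (AN6653), the malate synthase gene, had -1.62 ± 0.37. With CdCl2 *acuD* had -0.28 ± 0.21 (interaction adjusted p = 0.000917, edgeR). In glycolysis 5 of 20 tested members were higher in TNJ92, 9 were lower and 6 did not pass the test, with *pfkZ* (AN5144), a putative 6-phosphofructo-2-kinase gene, lowest (-1.29 ± 0.11) and *hxkA* (AN7459), the hexokinase gene, higher (0.56 ± 0.08).

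Cell wall genes held higher and lower members, beside 32% of all genes higher and 29.6% lower. *chiA* (AN8241), an endochitinase gene, was read 2779, 4167 and 4098 times in the THS30 libraries and 262, 239 and 333 times in those of TNJ92, with -3.98 ± 0.11 (adjusted p = 6.65e-15, edgeR). *fksA* (AN3729), the 1,3-beta-glucan synthase gene, stood at 1423, 1549 and 1471 CPM in THS30 and 715, 564 and 677 CPM in TNJ92, with -1.18 ± 0.10 (adjusted p = 3.95e-08, edgeR). Both were lower in every TNJ92 library. *celA* (AN8444), a gene similar to cellulose synthases, was higher (2.01 ± 0.15), as was *gelE* (AN7511), a putative transglycosidase gene (0.76 ± 0.11), while *gelA* (AN7657) of the same family was lower (-0.94 ± 0.10). Of glucan synthesis genes 7 of 21 were higher and 9 lower, of chitin synthesis genes 1 of 14 and 7, and of chitin hydrolysis genes 2 of 18 and 9. No chitin synthesis gene was called higher without THS30 replicate 1 or without TNJ92 replicate 3. Among cell wall integrity genes 1 of 8 tested members was higher, 5 were lower and 2 did not pass the test. None was called higher with only the 6 untreated libraries. The kinase genes *mpkA* (AN5666), *bckA* (AN4887) and *pkcA* (AN0106) of that list had -0.62, -0.55 and -0.46, all past the test. *mkkA* (AN4189) was lower too, a call lost with DESeq2 (-0.33) and without several single libraries.

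Biosynthetic and trafficking groups differed in their counts, beside 32% of all genes higher and 29.6% lower. Of folate cycle genes 8 of 12 tested members were higher in TNJ92, 1 was lower and 3 did not pass the test, with a median of 0.57; AN4776, related to yeast *FSH3*, had 1.02 ± 0.11, and *metF* (AN5883), a methylenetetrahydrofolate reductase gene, was lower (-0.35 ± 0.08). Of genes of cysteine, methionine and glutathione metabolism 24 of 53 were higher and 8 lower, with AN8859, a putative aspartate kinase gene, at 1.12 ± 0.12 and *mecB* (AN1446), the cystathionine gamma-lyase gene, at -1.12 ± 0.10. In ER to Golgi transport 24 of 42 genes were higher and 2 lower (median 0.25), the lower ones numbering 1 without any single library other than TNJ92 replicate 3. In the list of iron-sulfur cluster proteins 21 of 44 were higher and 8 lower, with *gltA* (AN5134), the glutamate synthase gene, at 1.11 ± 0.14 and *hxA* (AN5613), the xanthine dehydrogenase gene, at -1.42 ± 0.10. Of the autophagy genes the counts were 5 of 26 higher and 13 lower (median -0.28; 3 higher without TNJ92 replicate 2), and *atg26* (AN4601), a sterol glucosyltransferase gene by its orthologs, had -0.94 ± 0.10. Of 82 DNA repair genes 22 were higher and 12 lower, with a median of 0.09, both counts being smaller shares than those of all genes.

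**Figure D5:**
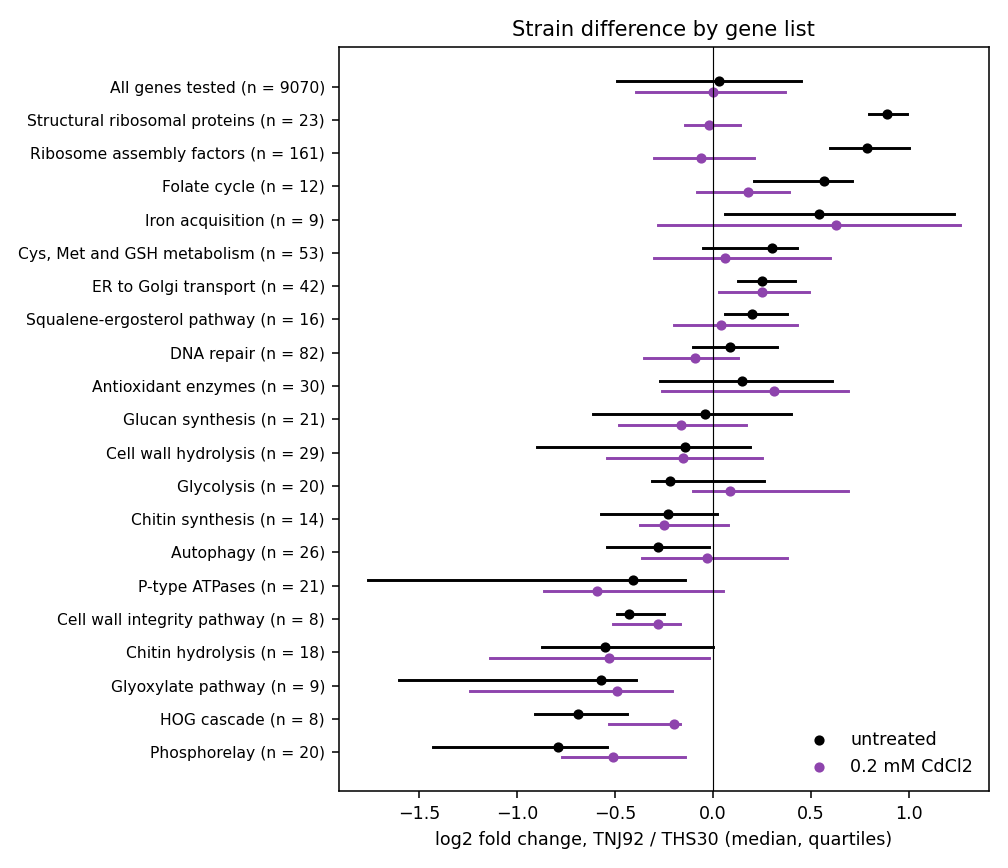
Median log2 fold change of TNJ92 against THS30 in untreated mycelium and under CdCl2 for selected gene groups and all tested genes. Lines run from the lower to the upper quartile, and the number of tested genes stands beside each name. In untreated mycelium the ribosome groups lie highest and the phosphorelay lowest of those drawn, at -0.79, with all tested genes at 0.03.

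In the iron acquisition list 6 of 9 tested members were higher in TNJ92, 1 was lower and 2 did not pass the test. Of all genes 32% were higher and 29.6% lower. The lower members numbered 2 without THS30 replicate 1 or without TNJ92 replicate 1. *sidA* and *mirA*, also looked for, were not matched by symbol. *sidI* (AN0609), a gene of triacetylfusarinine C synthesis, stood at 2.73, 3.65 and 1.18 CPM in THS30 and 19.5, 18.8 and 9.76 CPM in TNJ92, with 2.66 ± 0.35 (adjusted p = 2.73e-05, edgeR). *sidH* (AN6235) (1.94 ± 0.20), *sidF* (AN6234) (1.23 ± 0.18) and *sidD* (AN6236) (1.06 ± 0.18), genes of the same pathway, were also higher. Libraries did not overlap in any of the 4, which held for 66.3% of all genes. *sidC* (AN0607), the synthetase gene of the ferrichrome type, was lower (-1.17 ± 0.11).

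Secondary metabolite clusters more often had a median below 0 than above it. The study lists 66 cluster entries, and 48 had at least 3 tested genes. The median log2 fold change was below 0 in 34 and above 0 in 14 of these. It was -1 or less in 13 and 1 or more in 3. Of these entries, 4 share genes with another entry, the *xptA* and AN6791 entries among them, so the tallies count some genes more than once. Over the 277 tested genes of all clusters, each counted once, 55 were higher (19.9%, against 32% of all genes), 118 were lower (42.6%, against 29.6%) and the median was -0.40. The quartile of all genes with the lowest levels had a median of -0.36, and the part of level in the cluster counts was not tested. Among clusters with at least 3 tested genes the lowest median was that of AN2924, with 4 of 4 genes lower and a value of -5.44. AN2923 of that cluster stood at 72.9, 60.4 and 56.5 CPM in THS30 and 1.03, 0.613 and 0.976 CPM in TNJ92. The cluster around *xptA* had 8 of 8 tested genes higher (median 1.91), among them *CYP682C1*. Of the 12 genes of the monodictyphenone cluster 4 were tested, and these 4 were lower (median -2.03), with *mdpG* (AN0150), its polyketide synthase gene, at -1.92 ± 0.25. The call of *mdpF* (AN0149) (-1.11 ± 0.46) was lost with DESeq2 (-1.10), with only the 6 untreated libraries (-1.13) and without several single libraries. Of the emericellamide cluster, *easB* (AN2547), its polyketide synthase gene, had -1.37 ± 0.36, a call lost with only the 6 untreated libraries in the fit. Of the sterigmatocystin cluster 14 genes were tested, of which 8 were lower and 0 higher, and *stcU* (AN7806) stood at 1.42, 1.10 and 1.18 CPM in THS30 and 0, 0.0876 and 0.300 CPM in TNJ92 (-3.09 ± 0.56). The penicillin cluster has 3 genes, and the 2 that were tested, *ipnA* (AN2622) and *aatA* (AN2623), were higher (1.40 ± 0.24 and 1.26 ± 0.24).

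Most genes of spore formation, looked at to check the label of mycelium, stood at low levels in both strains. *brlA* (AN0973), the central regulator of conidiation, stood at 2.73, 1.70 and 3.00 CPM in THS30 and 1.35, 1.49 and 2.70 CPM in TNJ92 and did not pass the test. *wetA* (AN1937), a regulator of spore maturation (-1.50 ± 0.32), and *wA* (AN8209), the polyketide synthase gene of the spore pigment (-1.31 ± 0.15), were lower in TNJ92, as was *yA* (AN6635) (-0.65). *ivoB* (AN0231) was higher (0.85), a call lost with only the 6 untreated libraries and without several single libraries. *abaA* (AN0422) (0.28) did not pass the test. The hydrophobin gene *rodA* (AN8803) was at 4.86, 2.88 and 15.4 CPM in THS30 and 1.75, 19.6 and 57.1 CPM in TNJ92, so that the spread within TNJ92 exceeded the difference between strains. The 9 conidial markers, all matched, summed to 78.7 to 100.3 CPM in THS30 and 34.5 to 102 CPM in TNJ92, which overlap through *rodA*. Without *rodA*, a choice made after seeing the data, the sums were 73.9 to 84.9 CPM in THS30 and 32.7 to 44.4 CPM in TNJ92, which do not overlap. *dewA* was at 4 counts or fewer in each library. The marker sums include *catA* itself, at 24.4, 33.1 and 31.1 CPM in THS30 and 0.0796, 0 and 0.300 CPM in TNJ92. They therefore cannot show the part of conidial RNA in the loss of *catA*, which was not tested. Of the Hülle cell and fruiting body markers 2 of 4 were matched, and *mutA* stood at 1.70 CPM or less in every library. The other, *nsdD* (AN3152), stood at 61.3, 63.2 and 69.3 CPM in THS30 and 81.7, 72.6 and 80.6 CPM in TNJ92. Its log2 fold change was 0.28 (adjusted p = 0.0141, edgeR). Of regulators of development, *stuA* (AN5836) (-0.75 ± 0.09) and *fluG* (AN4819) (-0.53 ± 0.09) were lower, while *flbA* (AN5893) (0.88 ± 0.13) and *veA* (AN1052) (0.52 ± 0.09) were higher.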

How the data were processed

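Total RNA of lyophilized mycelia was made into TruSeq libraries, 3 biological replicates per group, as the study describes them. The authors aligned the reads with HISAT2 2.1.0 to the *A. nidulans* FGSC A4 genome and deposited a raw read count, a transcript length and an RPKM value for every gene in each library. The program and strand setting of the counting are not stated in the paper or labels, so reads of overlapping genes and near-identical copies are uncertain. The deposited RPKM values equal the counts divided by length and column total (largest relative difference 5.1e-15) and were not used for tests.

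The filterByExpr function of edgeR 4.0.16 (R 4.3.3) selected genes at a minimum count of 10. TMM scaling and a robust quasi-likelihood fit over the 4 groups of 12 libraries gave the strain difference without and with CdCl2 and their interaction. All groups share 1 estimate of the spread (common biological coefficient of variation 0.109). Each standard error was obtained as the log2 fold change over the square root of its F, without sign. P-values were adjusted by Benjamini and Hochberg over 9070 genes with a threshold of 0.05. The code was tested on simulated data. Gene groups came from the supplement of the study and from symbols matched to RefSeq (assembly ASM1142v1, 10032 genes matched), which served only for names and gene order. Genes named are those of strain construction, the 10 largest changes each way with at least 50 CPM, the 5 largest CPM differences each way, up to 3 per group and direction, members of small groups, near-silent genes, and, chosen after their values were seen, neighbouring runs and genes around *atfA*. Members and lists were chosen with earlier results of these data known. Alternatives were RLE, library totals, no filter, DESeq2 1.42.0, only the 6 untreated libraries, a replicate block, each library left out and a log2 fold change of at least 1. Promoter sequences were not analysed here.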

Additional observations from a re-analysis of the deposited data

Results flagged for a closer look

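The strain difference in untreated mycelium was compared with that under CdCl2 by an interaction term in the edgeR fit, for 44 genes. These were the genes of strain construction, the 20 with the largest changes among genes of at least 50 CPM, and the phosphorelay. The interaction test was passed by 25 of them at a Benjamini-Hochberg adjusted p of 0.05 over all genes. Of all tested genes 26.7% passed it. Values are untreated minus CdCl2 strain differences on the log2 scale, so a negative value for a gene lower in TNJ92 marks the larger loss in untreated mycelium. For *pyroA*, higher in TNJ92, the value was -0.76. Among the largest losses it was -3.91 for AN8959, -7.45 for AN5056, -1.41 for AN9180, -3.52 for AN9285, -0.80 for AN0468, -1.25 for AN0693, -2.51 for AN7992 and -1.56 for AN10422. Among the largest gains it was 1.53 for AN2844, 1.47 for AN8137, 1.93 for AN7832, 2.13 for AN5069 and -0.51 for AN8609. The phosphorelay genes gave -0.61 for *tcsB*, -0.48 for *hk-8-6*, -1.72 for *hk-8-1*, -0.45 for *phkB*, -0.59 for *srrA*, -1.51 for *hk-8-2*, -0.55 for *tcsA*, -0.67 for *hk-8-3*, -1.05 for *hk2*, -0.45 for *fphA* and -0.95 for *hk-8-7*. The 20 genes with the largest changes were chosen by their untreated values, which favours smaller values under CdCl2, so no direction is read from their number. Each group held 3 libraries, too few to test for a single library that stands apart.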

How the results depend on the processing

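The counts of 2905 genes higher and 2683 lower stayed within 1.5 times under each change of scaling, filter, test or samples. They were 2881 and 2705 with RLE, 2933 and 2572 with library totals, 2853 and 2760 without a filter, 2847 and 2645 with DESeq2 and 2696 and 2548 with only the 6 untreated libraries. With 1 library left out in turn they ran from 2586 to 2915 and from 2418 to 2667. Asking also for a log2 fold change of at least 1 in size left 583 and 1175, by construction. The median over all genes lay between 0.018 and 0.048 under every setting. With the replicate block the counts were 3052 and 2775. Libraries with the same number correlated in their deviations with r of 0.44, -0.20 and 0.45, and those with other numbers with r of -0.56 to 0.34. With 3 libraries per group these values cannot tell whether the numbers pair the samples, which the sample titles do not state. Of the counts and medians of the gene groups, 94 to 108 of 108 stayed close to the values given, fewest without TNJ92 replicate 3. Of 528 genes of the naming rule that were tested, 437 kept call and direction in each of the 12 settings that gave a value, 25 genes having none with only the 6 untreated libraries, and 91 did not in at least 1. The only reversal was AN7914, at 0.91 (not past the test) with all libraries, from -1.39 to 1.41 with 1 left out and at -1.39 without TNJ92 replicate 3 (adjusted p = 0.00198, edgeR). The cause was not tested. The neighbour count at a log2 of 1 was chosen after seeing the data. Depth limits genes near 0 reads in 1 strain, whose log2 fold changes depend on the prior count.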
